A study of Brachypodium distachyon with 9 samples.

Results

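The 200 most abundant non-coding transcripts of protein-coding genes were described in shoots of droughted Brachypodium distachyon 21-3, a model grass related to wheat and barley. RefSeq gives such a transcript an accession that starts with XR_, and the annotated table lists it on a row of its own beside the row of its gene. The 200 rows were chosen by their level: they were those with the highest mean normalized count over 9 libraries, out of 2206 such rows and 28454 features in the table. They came from 171 of the 1010 protein-coding genes that have one. The choice used only the mean over all 9 libraries, mutants included, so a transcript that is high only in a mutant can enter through the mutant libraries. Transcript levels are given as a description, and the differences between genotypes are tested.

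The libraries came from 3 genotypes with 3 biological replicates each, namely wild type, gf14h-1 and hdac19-2b. Per the labels, both mutants were made with CRISPR/Cas9 and are homozygous for an exon 1 mutation that introduces a premature stop codon, gf14h-1 in the gene of a 14-3-3 protein and hdac19-2b in the gene of HISTONE DEACETYLASE 19. Every plant, wild type included, was grown for 18 days in a cycle of 14 h at 20 °C in the light and 10 h at 18 °C in darkness, then kept dry for 15 days in a cycle of 16 h light and 8 h darkness. Whole aboveground tissue at the 5-leaf stage was taken 3 h post dawn, and poly(A) RNA was sequenced. No watered plants are among these libraries, so every value is from drought. Each mutant is represented by 1 allele, and the mutated genes themselves were not analysed here, so the genotypes rest on the labels.

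One locus can give several RNAs through alternative splicing, alternative starts and alternative ends. An RNA whose introns stay in, or whose reading frame is broken early, may carry no full open reading frame, and an annotation then lists it as non-coding although it comes from a coding gene. In plants such RNAs may be kept in the nucleus or degraded by nonsense-mediated decay, and their proportion to the coding RNA is known to respond to light and stress. 14-3-3 proteins bind phosphorylated partners, and histone deacetylases remove acetyl groups from histones, which as a rule lowers transcription of the gene.

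The libraries held 3302835 to 36632994 estimated counts, with gf14h-1 replicate 3 the smallest. The 200 transcripts took 0.250% to 0.437% of them, and 43 of the 200 fell under 10 counts in that library, where any of the others had 0 to 6 such transcripts. A principal component analysis used the 23898 features that passed a filter on low counts. In it, gf14h-1 replicate 3 stood apart on component 1, which held 28.1% of the variance, and gf14h-1 replicate 1 on component 2, with 19.0%. Of 10 chloroplast genes taken as markers of green tissue, 9 had at least 10 counts in every library, and their summed normalized level ran from 40458 to 93860 (wild type), 42589 to 81964 (gf14h-1) and 38650 to 74081 (hdac19-2b). Most of that sum was rbcL, at 32488 to 84573 over the libraries, while no other marker exceeded 4377.

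The most abundant member was XR_002964972.1 of LOC100844849, on chromosome 1 at 14878426 to 14881240. Its normalized counts (estimated counts divided by 1 size factor per library) were 1470, 2550 and 2540 in the wild type replicates, 2990, 3268 and 922 in gf14h-1, and 1571, 2107 and 2475 in hdac19-2b. The 3 genotypes overlapped, and the low value of 922 was that of the shallow gf14h-1 replicate 3. The next were XR_730667.3 of LOC100843013 with a mean of 1476, XR_731905.3 of LOC100835946 with 1156, XR_730672.3 of LOC100843013 with 973, XR_002965200.1 of LOC104583631 with 953 and XR_730614.3 of LOC100842641 with 899.9. XR_002965254.1 of LOC100827594, XR_731216.3 of LOC100837884, XR_730992.3 of LOC100829579 and XR_731311.3 of LOC100832874 had means between 585 and 610.0.

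**Figure D1:**
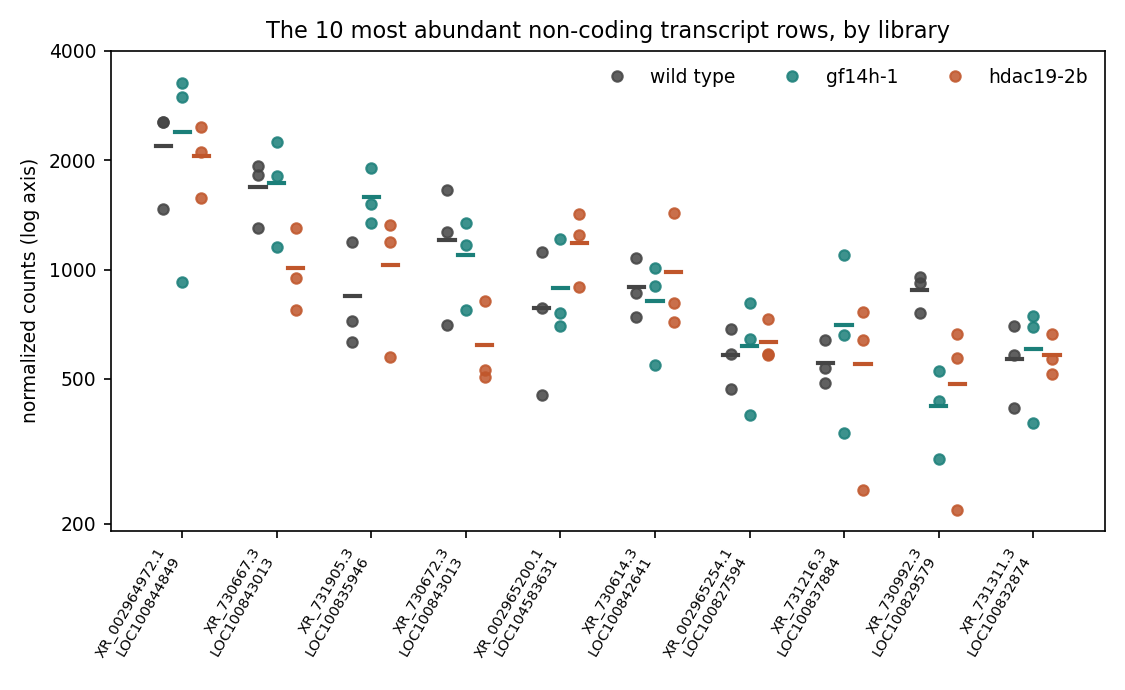
Normalized counts (log axis) of the 10 most abundant transcripts in the 9 libraries; points are libraries and short lines are the means of 3. XR_002964972.1 lies between 922 and 3268, and the libraries of the genotypes overlap for most of the 10.

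Abundance fell off quickly after these. The median of the 200 means was 158, and 129 of them lay under 200. Over all 2206 rows the median was 10.6. The last 5 inside the 200 were XR_002966481.1, XR_001406413.2, XR_002964866.1, XR_001407889.2 and XR_002963753.1, with means of 95.8, 95.1, 94.8, 94.0 and 91.9. The first 5 outside were XR_002964130.1 with 91.8 and 4 others down to 90.4, so the limit of 200 separates no natural class.

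The members lay on all 5 chromosomes, with 60 on chromosome 1, 44 on chromosome 2, 56 on chromosome 3, 24 on chromosome 4 and 16 on chromosome 5. A single member was found for 144 genes, 2 members for 25 genes and 3 for LOC104583631 and LOC104583798. Members of the same gene share its reads and are not independent of each other. In RefSeq, 65.5% of the members belong to a gene with 1 coding transcript, against 49.2% of all 2206 rows, and 41.5% to a gene with 1 non-coding transcript, against 23.3%. Their genomic spans, introns included, had a median of 5309 bases (1183 to 22165), and those of all 2206 rows a median of 5086.5.

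The names say little about function. Only 1 of the 200 carries a description in the annotation, XR_002962763.1 of LOC100824579, which is described as agamous-like MADS-box protein AGL14-like; MADS-box proteins are a family of plant transcription factors. With no description for the others, the members could not be sorted into functional groups and are described by locus.

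Each transcript row was then set beside the row of its own gene. A gene row was found in the count table for 189 of the 200, over 163 genes. The other 11 members, of 8 genes, are given by their own level only; XR_730992.3 of LOC100829579 is the most abundant of these. How the counting divided a read that fits both rows is not given in the sources used here, and the counts are not corrected for transcript length.

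The transcript row was often as large as the gene row. In pooled wild type counts, the share of the transcript row in the sum of the transcript and gene rows had a median of 54.4% over the 189 pairs, with an interquartile range of 30.1% to 79.1%. It was above 50% in 103 pairs, above 90% in 23 and under 10% in 13. Over all 2018 such pairs with wild type counts the median was 13.4%, and over the 1829 pairs outside the 200 it was 10.6%. Part of that gap follows from the choice of abundant transcripts, so it was not tested.

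**Figure D2:**
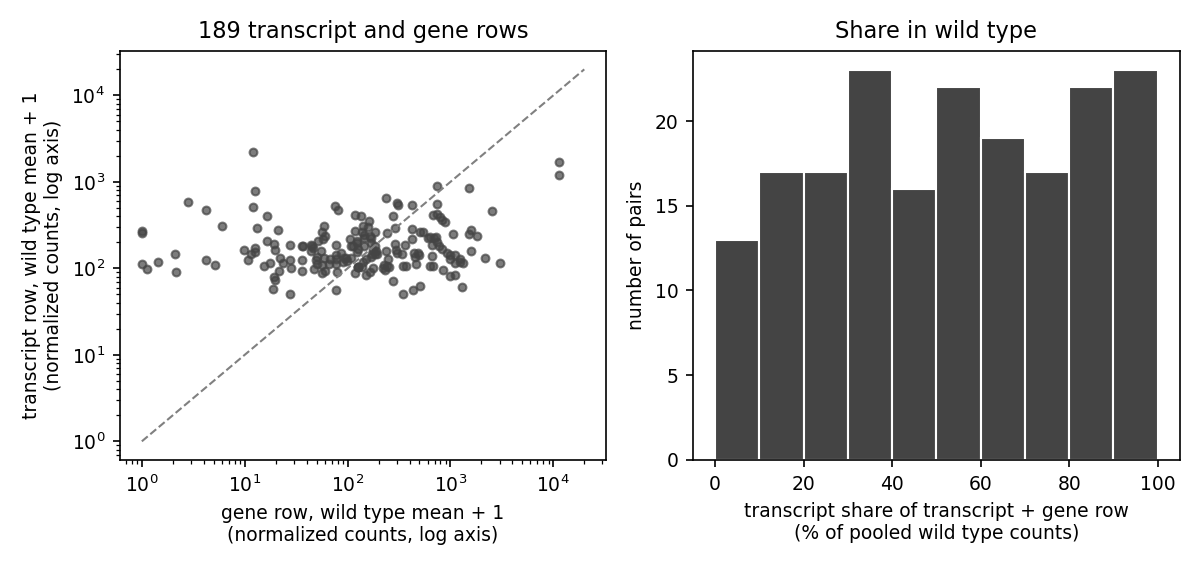
Left, wild type means of transcript row and gene row for the 189 pairs, as normalized counts + 1 on log axes, with the line of equality dashed; right, number of pairs by the transcript's share of pooled wild type counts. Gene rows span a far wider range than transcript rows, and 103 of 189 shares lie above 50%.

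At the upper end the gene row was almost empty. XR_002964275.1 of LOC100826884, XR_001407207.2 of LOC100822966 and XR_001404882.2 of LOC100837044 had 0 counts in the gene row in every wild type library. XR_002964630.1 of LOC100842347 had a share of 99.8%, XR_002965254.1 one of 99.7%, XR_002964972.1 one of 99.7%, XR_002966063.1 of LOC100831762 one of 99.7% and XR_731954.3 of LOC100842356 one of 99.5%. For XR_002964972.1 the wild type mean was 2187 ± 621 normalized counts (SD, n = 3), and its gene row held 33.3, 0 and 0 in the 3 libraries. Reads of these loci were thus counted almost wholly on non-coding rows of coding genes.

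At the lower end the gene row dominated. XR_730180.3 of LOC100839765 made up 3.23% of its pair in wild type, with 114 ± 49.99 normalized counts against 3006 ± 655 in the gene row (SD, n = 3). XR_001405363.2 of LOC100837458 made up 4.73%, XR_002965579.1 of LOC100835743 5.60%, XR_002961785.1 of LOC100833428 6.35% and XR_731568.3 of LOC100839320 6.52%. The 2 members of LOC100846281, XR_001405261.2 and XR_001405260.2, made up 7.30% and 7.54%, and XR_002966481.1 of LOC100828033 7.94%. The largest gene row belonged to LOC100843013, whose members XR_730667.3 and XR_730672.3 are annotated over the same bases of chromosome 1, 9452015 to 9459415, and held 13.2% and 9.68% of their pairs.

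The typical share was alike in the 3 genotypes. Its median over pairs was 52.3%, 55.3% and 51.9% in the wild type libraries, 50.4%, 53.7% and 57.1% in gf14h-1, and 51.3%, 52.4% and 54.9% in hdac19-2b. The groups overlapped throughout. The summed level of the 200 transcripts was 44922 ± 4056 normalized counts in the wild type, 48237 ± 8513 in gf14h-1 and 44491 ± 3100 in hdac19-2b (SD, n = 3), which also overlap.

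Within a genotype, the single rows varied much more between replicates than the whole locus. The within-genotype SD of log2(normalized count + 1) had a median of 0.71 over the transcript rows of the 189 pairs and 0.72 over their gene rows. When all rows of a locus were summed, a step added after the data were seen, the median was 0.33. Both rows exceeded their locus sum in 148 of the 189 pairs. A sum holds more counts than its rows, and where reads are divided between rows the division cancels in it. A lower SD of the sum thus follows in part from the summing. The gene row was at 0 in at least 1 library in 49 pairs. In the 84 pairs whose locus has 2 rows, the medians were 0.64 for transcript rows, 0.52 for gene rows and 0.32 for locus sums. Gene rows of the 13931 protein-coding genes that have no such transcript and reach the level of the lowest member had a median of 0.36, close to that of the locus sums, at a higher typical level of 427 normalized counts. The 437 rows of long non-coding RNA genes that reach the same level, with a typical 166 normalized counts, had a median of 0.52, between the locus sums and the members' rows. Without gf14h-1, over wild type and hdac19-2b only, the medians were 0.51 for transcript rows, 0.48 for gene rows and 0.25 for locus sums.

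**Figure D3:**
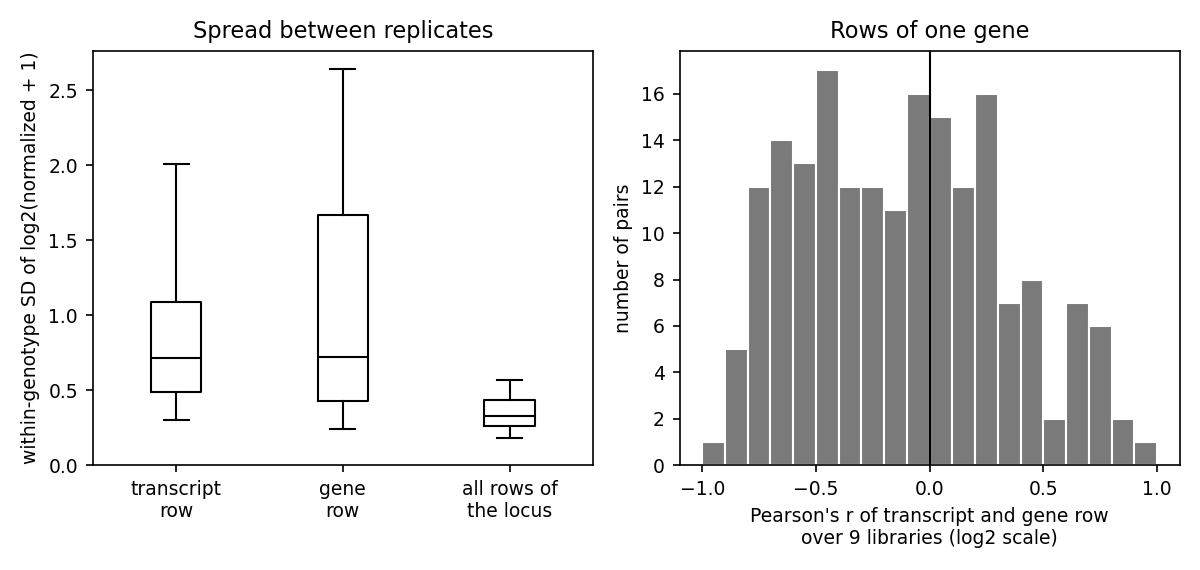
Left, within-genotype SD of log2(normalized count + 1) for the transcript row, the gene row and the summed locus over 189 pairs (box, quartiles; line, median; whiskers, 5th to 95th percentile); right, number of pairs by Pearson's r between transcript and gene row over 9 libraries. The medians are 0.71, 0.72 and 0.33, and 113 of 189 correlations are negative.

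The transcript row and the gene row of a locus did not rise and fall together as a rule. Pearson's r between them, over the 9 libraries and on the log2(normalized count + 1) scale, had a median of −0.12 over the 189 pairs, and 113 were negative. It was below −0.5 in 45 pairs and above 0.5 in 18. These r values are descriptions: the 9 points of every pair come from the same libraries and share their depth, and where the counting divides reads between the rows, a count on one is a count less on the other. Without gf14h-1 replicates 1 and 3, the median over 188 pairs and 7 libraries was −0.20.

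The most opposed pair was XR_001404882.2 of LOC100837044. The transcript held 97.1, 166 and 74.8 normalized counts in the wild type, 396, 90.7 and 0 in gf14h-1, and 102, 142 and 193 in hdac19-2b. Its gene row held 124 in gf14h-1 replicate 3 and 0 in each of the other 8 libraries. A single library therefore decides its r of −0.957. In XR_001406412.2 of LOC100823862, by contrast, no single library stood alone (r = −0.881), with the transcript at 142, 334, 307, 485, 220, 129, 264, 114 and 265 and the gene row at 124, 25.1, 17.7, 6.59, 103, 139, 36.1, 127 and 103, in the order wild type, gf14h-1, hdac19-2b. The library with the lowest transcript value had the highest gene row value in each genotype, while hdac19-2b replicates 1 and 3 had nearly equal transcript values and unequal gene rows. XR_002963378.1 of LOC100842133 (r = −0.860) and XR_002964701.1 of LOC100823167 (r = −0.838) followed.

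A few pairs moved together instead. In XR_001408062.2 of LOC100841767 the transcript row was between 5.96 and 6.05 times the gene row in every library (r = 1.00), with 567, 396 and 464 against 94.2, 65.5 and 77.0 normalized counts in wild type. No other of the 140 pairs with gene counts in all 9 libraries had a ratio so steady. Its highest ratio was 1.02 times its lowest, the next steadiest pair reached 1.95 times, and the median over the 140 was 11.98 times. Whether the division of reads between the rows set the ratio of XR_001408062.2 was not tested. XR_001407023.2 of LOC100823067 (r = 0.872), XR_002961093.1 of LOC100842208 (r = 0.805) and the MADS-box transcript XR_002962763.1 (r = 0.797) were the others highest in r.

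The share of a pair was most often farthest from its own median in 2 libraries. These were gf14h-1 replicate 3 in 73 of the 189 pairs and gf14h-1 replicate 1 in 47, against 8 to 13 in each of the other 7 libraries. Gene rows at 0 showed the same libraries: 30 pairs in gf14h-1 replicate 3 and 22 in replicate 1, against 6 to 13 elsewhere. gf14h-1 replicates 1 and 3 held 17653802 and 3302835 counts. They had 24218 and 23016 features above 0 counts, against 26072 to 27335 in the other libraries. The part of depth in these patterns was not tested.

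The genotypes were compared with edgeR's quasi-likelihood test fitted to all 9 libraries and 23898 features, with Benjamini-Hochberg adjustment over all of them and a call at an adjusted p under 0.05. All 200 transcripts passed the filter on low counts, as did 152 of the gene rows. Differences in whole shoots may come from fewer cells of a type or from less RNA per cell, which cannot be told apart. Both mutants were compared with the same 3 wild type libraries, so their lists are given side by side and not set against each other.

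In gf14h-1 against wild type, 1 of the 200 transcripts was called (0.5%), where 0.146% of all features were. It was XR_002964787.1, which is among the 200 only through its mutant libraries, so this share is not independent of the choice. At an unadjusted p under 0.05 there were 18 (9% against 7.56%), 10 higher (background 3.41%) and 8 lower (4.15%). The libraries of both groups did not overlap for 25 transcripts (12.5% against 11.8%), 14 higher (background 5.46%) and 11 lower (6.37%) in the mutant. DESeq2 called 4 (background 1.43%). The median log2 fold change was 0.03 over the 200 and −0.00 over all features. Of the 152 gene rows, 0 were called by edgeR, 11 had an unadjusted p under 0.05, and DESeq2 called 1, LOC100828033. The shares at an unadjusted p and without overlap lay near the background.

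In hdac19-2b against wild type, 1 of the 200 was again called (0.5%, background 0.272%). It was XR_002964787.1 again, and the same limit applies. At an unadjusted p under 0.05 there were 16 (8% against 7.19%), 7 higher (background 2.59%) and 9 lower (4.61%). The libraries did not overlap for 27 transcripts (13.5% against 16.8%), 15 higher (background 8.31%) and 12 lower (8.49%). DESeq2 called 3 (background 2.24%). The median log2 fold change was 0.00, and over all features 0.02. A fitted change of at least 2-fold was seen in 12 transcripts (6%, against 11.3% of all features). In gf14h-1, which holds both libraries that stand apart, the number was 27 (13.5%, against 12.5%), and the mutants are not ranked by it. Of the gene rows in hdac19-2b against wild type, 0 were called by edgeR and 10 had an unadjusted p under 0.05. DESeq2 called 2, LOC100828033 and LOC100842347.

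**Figure D4:**
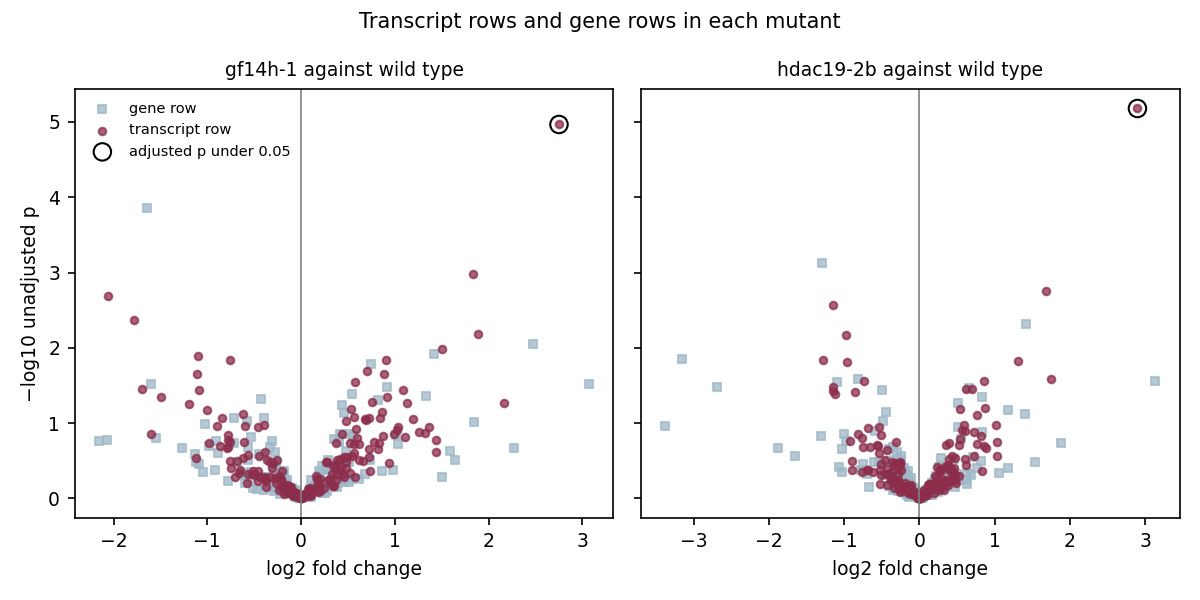
Log2 fold change (x axis) against −log10 of the unadjusted p of edgeR's quasi-likelihood test (y axis) for the 200 transcript rows and the gene rows tested, in gf14h-1 (left) and hdac19-2b (right), each against the same wild type libraries. The circled point in each panel is XR_002964787.1, at 2.75 and 2.90.

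The transcript called in both mutants was the same one, XR_002964787.1 of LOC100845101, on the minus strand of chromosome 3 at 18867561 to 18879815. RefSeq gives this gene 2 coding and 2 non-coding transcripts, and the annotation used here gives it no description. The transcript held 31.4, 55.7 and 60.1 normalized counts in the wild type, 436, 304 and 263 in gf14h-1, and 509, 255 and 340 in hdac19-2b. Every mutant library was above every wild type library, and the mutants overlapped each other. The means were 49.1 ± 15.5, 335 ± 90.6 and 368 ± 129 (SD, n = 3). The wild type mean lay below 91.9, the lowest mean among the members, so this transcript was chosen only through its mutant libraries.

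The log2 fold change of XR_002964787.1 was 2.75 (SE 0.36) in gf14h-1, with an adjusted p of 0.0254 by edgeR's quasi-likelihood test. In hdac19-2b it was 2.90 (SE 0.36), with an adjusted p of 0.0113 by the same test. The mutants differed from each other by −0.15 (SE 0.33) on the log2 scale, gf14h-1 minus hdac19-2b, with an edgeR adjusted p of 0.949.

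The other rows of LOC100845101 went the other way in their values. The gene row held 248, 469 and 328 in the wild type, 90.1, 114 and 167 in gf14h-1, and 2.31, 118 and 1.68 in hdac19-2b. All 6 mutant libraries were below the wild type libraries, but the log2 differences of −1.54 (SE 1.02) and −3.16 (SE 1.08) had edgeR adjusted p of 0.839 and 0.416. The second non-coding row, XR_001407091.2, held 16.2, 27.3 and 60.9 in wild type, 0 in all 3 gf14h-1 libraries, and 0, 0 and 26.9 in hdac19-2b.

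The sum of the 3 rows was 296, 552 and 449 in the wild type, 526, 419 and 430 in gf14h-1, and 511, 373 and 369 in hdac19-2b, and the 3 genotypes overlapped. The log2 fold changes of that sum were 0.08 (SE 0.26, edgeR adjusted p = 0.983) and −0.05 (SE 0.26, edgeR adjusted p = 1). The share of XR_002964787.1 in its pair was 11.2%, 10.6% and 15.5% in the wild type, 82.9%, 72.7% and 61.1% in gf14h-1, and 99.5%, 68.3% and 99.5% in hdac19-2b. The shares of the mutants lay far above those of wild type without overlap. The called difference at this locus was thus in 1 row, and none was detected in the sum.

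The call on XR_002964787.1 was not secure in gf14h-1. Its edgeR adjusted p rose to 0.103, 0.0686 and 0.0910 without wild type replicates 1, 2 and 3, to 0.0520 and 0.0638 without gf14h-1 replicates 1 and 2, and to 0.0657 without hdac19-2b replicate 3, which enters through the shared spread. With gf14h-1 replicate 2 as the only gf14h-1 library it was 0.0806, and with the 6 libraries of the comparison alone it was 0.136. In hdac19-2b the call was lost without wild type replicate 3 (0.0659) and without hdac19-2b replicate 1 (0.0682). The log2 fold change stayed between 2.51 and 2.93 in gf14h-1 and between 2.59 and 3.11 in hdac19-2b over the 16 alternatives of each.

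**Figure D5:**
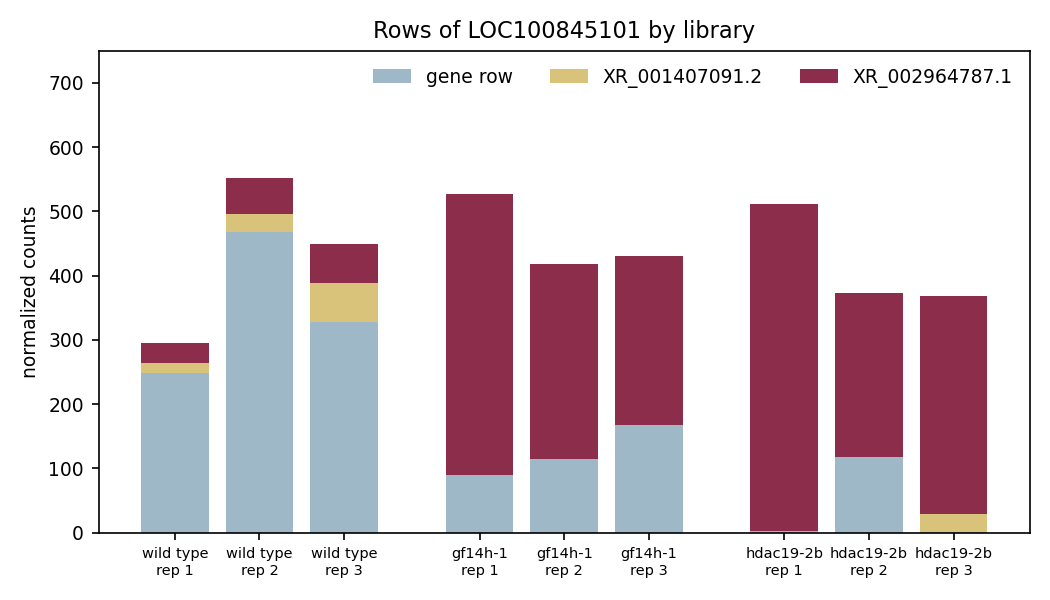
Normalized counts of the gene row and both non-coding rows of LOC100845101 in each library, stacked. The bar heights of the genotypes overlap, between 296 and 552, while XR_002964787.1 rises from 31.4 to 60.1 in wild type to 255 to 509 in the mutants.

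XR_733175.3 of LOC100831912 on chromosome 5 came closest to a call after it. It held 121, 127 and 77.4 normalized counts in the wild type, 237, 296 and 664 in gf14h-1, and 407, 407 and 224 in hdac19-2b. All mutant libraries were above the wild type ones. The log2 differences were 1.84 (SE 0.42) and 1.68 (SE 0.41), with edgeR adjusted p of 0.175 and 0.154. Its gene row never exceeded 7.14, so here the sum of the locus differed as the transcript did, by 1.79 and 1.63, with edgeR adjusted p of 0.119 and 0.103. DESeq2 called it in both mutants, with adjusted p of 0.00353 and 0.00954. In hdac19-2b edgeR called it too with the 6 libraries alone (adjusted p = 0.0431), without gf14h-1 replicate 3 (0.0366) and without both gf14h-1 libraries that stand apart (0.0450).

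In gf14h-1 the next transcripts by p were XR_730135.3, XR_002960576.1 and XR_001407209.2. XR_730135.3 of LOC100845632 held 374, 199 and 204 in the wild type, 32.9, 103 and 47.8 in gf14h-1, and 162, 61.4 and 131 in hdac19-2b. Both mutants lay below wild type in every library. Its log2 difference in gf14h-1 was −2.06 (SE 0.51, edgeR adjusted p = 0.241; DESeq2 adjusted p = 0.0147), while its gene row stood at −0.28 (SE 0.23), with 374 to 606 normalized counts in all 9 libraries.

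XR_002960576.1 of LOC100845725 held 278, 291 and 133 in the wild type, 28.6, 106 and 71.7 in gf14h-1, and 213, 143 and 270 in hdac19-2b. The gf14h-1 libraries were below all the others. The log2 difference from wild type was −1.78 (SE 0.50, edgeR adjusted p = 0.329; DESeq2 adjusted p = 0.0477), and that of the summed locus −1.03 (SE 0.29, edgeR adjusted p = 0.256).

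XR_001407209.2 of LOC104583501, the member with the shortest span, held 60.9, 16.4 and 92.8 in the wild type, 218, 264 and 158 in gf14h-1, and 151, 87.6 and 54.6 in hdac19-2b. Every gf14h-1 library was above the other 6. Here transcript and gene row differed in the same direction, by 1.89 (SE 0.56) and 2.47 (SE 0.78) on the log2 scale, with edgeR adjusted p of 0.374 and 0.415.

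In hdac19-2b the transcripts next in order were XR_002965300.1, XR_002962763.1 and XR_732032.3, all lower in value. XR_002965300.1 of LOC100834729 held 439, 467 and 333 in the wild type, 561, 312 and 277 in gf14h-1, and 209, 147 and 200.1 in hdac19-2b. The hdac19-2b libraries were the lowest of the 9. The log2 difference was −1.15 (SE 0.30, edgeR adjusted p = 0.185; DESeq2 adjusted p = 0.0260), and that of its gene row was 0.21 (SE 0.36).

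The MADS-box transcript XR_002962763.1 held 482, 470 and 652 in the wild type, 503, 417 and 669 in gf14h-1, and 347, 299 and 168 in hdac19-2b. Its gene row held 320, 264 and 335, then 125, 249 and 492, then 201, 129 and 101. Both rows were lower in every hdac19-2b library than in any wild type library. The log2 differences were −0.98 (SE 0.29) for the transcript and −1.09 (SE 0.43) for the gene row, with edgeR adjusted p of 0.296 and 0.566, and the log2 ratio of the rows differed by 0.12 (SE 0.91). The transcript's share was 60.1%, 64.0% and 66.0% in wild type and 63.3%, 69.9% and 62.5% in hdac19-2b, which overlap.

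XR_732032.3 of LOC100845547 held 75.2, 174 and 198 in the wild type, 158, 82.0 and 163 in gf14h-1, and 84.5, 55.8 and 42.9 in hdac19-2b. Wild type replicate 1 lay within the hdac19-2b range. Its log2 difference in hdac19-2b was −1.29 (SE 0.44, edgeR adjusted p = 0.419), and that of its gene row 0.83 (SE 0.51).

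Among the most abundant members, the values of LOC100843013 were lower in hdac19-2b for all 3 rows. XR_730667.3 held 1304, 1925 and 1826 in wild type and 1299, 776 and 947 in hdac19-2b. The log2 difference of this transcript was −0.74 (SE 0.29, edgeR adjusted p = 0.553), that of XR_730672.3 −0.96 (SE 0.34, edgeR adjusted p = 0.428) and that of the gene row −0.81 (SE 0.32, edgeR adjusted p = 0.542). XR_730992.3 held 759, 919.7 and 953 in the wild type, 433, 302 and 526 in gf14h-1, and 572, 218 and 663 in hdac19-2b. Its wild type libraries were above all mutant libraries, with log2 differences of −1.09 (SE 0.37, edgeR adjusted p = 0.475) and −0.85 (SE 0.36, edgeR adjusted p = 0.624).

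Between gf14h-1 and hdac19-2b, 0 of the 200 transcripts were called by edgeR (background 0.0167%) and 0 by DESeq2 (background 1.11%), and 20 had an unadjusted p under 0.05 (10% against 9.03%). The libraries did not overlap for 21 (10.5% against 14.1%). The smallest p belonged to XR_002963155.1 of LOC100825190, with 135, 71.5 and 95.6 in gf14h-1, 151, 307 and 242 in hdac19-2b, and 148, 107 and 131 in wild type. The hdac19-2b libraries were the highest of the 9. Its log2 difference was −1.22 (SE 0.35, edgeR adjusted p = 0.393). XR_001405658.2 of LOC100826523, which has no gene row, held 168, 74.1 and 38.2 in gf14h-1 and 289.7, 307 and 219 in hdac19-2b, with −1.49 (SE 0.43, edgeR adjusted p = 0.393). XR_002965300.1 (1.04), XR_002960576.1 (−1.63) and XR_002962763.1 (0.94), described above with their libraries, had edgeR adjusted p of 0.393, 0.404 and 0.414. Of the gene rows, edgeR called 0, with 10 at an unadjusted p under 0.05, and DESeq2 called 2, LOC100845918 and LOC104583501.

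The ratio of transcript to gene row was tested in one edgeR model with both rows of a pair, a term per library, and the difference between genotypes of log2(transcript/gene). It was fitted to the 1577 pairs with at least 30 counts summed over the libraries in each row, of which 183 were member pairs. In the other 6 member pairs the gene row had 11 to 29 counts in all. No ratio was called in any of the 3 comparisons, for member pairs or any others (background 0%), and limma on the same 1577 pairs called 0. At an unadjusted p under 0.05, edgeR gave 5 member pairs in gf14h-1 against wild type (2.73%, against 4.31% of all pairs), 4 in hdac19-2b against wild type (2.19% against 2.54%) and 6 in gf14h-1 against hdac19-2b (3.28% against 4.44%). Limma gave 5, 5 and 6.

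The precision of a ratio was low. The median SE of a member's log2 ratio difference was 1.42, 1.38 and 1.43 in the 3 comparisons, so changes of several fold in a typical pair were not detectable. Shares did not overlap between the groups for 12 of 182 pairs in gf14h-1 against wild type (6.59%, background 10.6%), 19 in hdac19-2b against wild type (10.4%, background 9.23%) and 21 between the mutants (11.5%, background 10.1%).

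XR_002964787.1 had the smallest ratio p in both mutants, with log2 differences of 4.28 (SE 1.63, unadjusted p = 0.0223) and 8.71 (SE 2.08, unadjusted p = 0.00128) in this edgeR model. The edgeR adjusted p were 0.992 and 1. The latter rests on gene rows of 3, 104 and 2 counts in hdac19-2b.

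XR_002963050.1 of LOC100833779 came next in gf14h-1. Its transcript held 193, 187 and 163 in the wild type, 13.9, 131 and 9.56 in gf14h-1, and 144, 210.5 and 188 in hdac19-2b. Its gene row held 2.86, 98.3 and 29.7, then 256, 60.2 and 158, then 36.1, 6.83 and 73.1. gf14h-1 replicates 1 and 3 were low on the transcript and high on the gene row, and replicate 2 lay among the gene row values of wild type. The log2 difference of the transcript was −1.69 (SE 0.70, edgeR adjusted p = 0.608). Without gf14h-1 replicate 2 it was called, with edgeR adjusted p of 0.0172 against wild type and 0.0221 against hdac19-2b. gf14h-1 replicates 1 and 3 are the libraries that stand apart in the principal component analysis, and their part in the difference was not tested.

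In XR_002961756.1 of LOC100839048 the same libraries stood apart in the gene row, in the opposite direction. Its transcript held 165, 199.9 and 299 in the wild type, 326, 302 and 311 in gf14h-1, and 205, 159 and 192 in hdac19-2b. All gf14h-1 libraries were above the other 6, with a log2 difference from wild type of 0.48 (SE 0.26, edgeR adjusted p = 0.764). Its gene row held 6.59, 187 and 0 in gf14h-1, against 128 to 225 in the other 6 libraries. In the gene row replicate 2 again lay with wild type, and the ratio difference of 4.24 (SE 1.90) had an edgeR adjusted p of 0.992.

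XR_730180.3, the transcript with the lowest share, made up 4.15%, 4.20% and 2.39% of its pair in wild type and 8.17%, 6.01% and 11.97% in gf14h-1, without overlap. The log2 ratio differed by 1.35 (SE 0.61). XR_730048.3 of LOC100828731 made up 31.6%, 42.3% and 60.7% in wild type and 85.5%, 73.0% and 96.3% in gf14h-1, also without overlap, with a ratio difference of 2.98 (SE 1.36). Both had edgeR adjusted p of 0.992.

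In hdac19-2b, 2 pairs had counts on the gene row that were nearly absent elsewhere. The gene row of LOC100826884 was at 0 in all wild type and gf14h-1 libraries and held 8.45, 23.9 and 9.25 normalized counts in hdac19-2b, where a floor of 3 counts is worth 2.31 to 3.41. Its transcript XR_002964275.1 held 173, 313 and 280 in the wild type, 590.2, 321 and 100.4 in gf14h-1 and 259.7, 300.4 and 335 in hdac19-2b, which overlap. The gene row of LOC100842347 held 0.376 in 1 wild type library and 0 in the other 5 libraries of wild type and gf14h-1, and 40.0, 2.28 and 29.4 in hdac19-2b. Its transcript XR_002964630.1 ran from 15.2 to 180 over the 9 libraries with overlap of all groups. The edgeR adjusted p of both ratios was 1.

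XR_002960491.1 of LOC100825868 and XR_002965234.1 of LOC100824919 completed the 5 of that comparison. For the first, the gene row held 0.952, 2.18 and 26.3 in wild type and 125, 102 and 59.7 in hdac19-2b, without overlap, and the transcript's share was 98.9%, 98.8% and 80.6% against 35.1%, 41.2% and 67.0%. For the second, the share was 98.2%, 100% and 91.6% in wild type and 94.4%, 53.9% and 78.4% in hdac19-2b, with overlap. The ratio differences were −4.97 (SE 2.15) and −3.84 (SE 2.21), both with an edgeR adjusted p of 1.

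Summed over all rows of the locus, 0 of the 171 member genes were called by edgeR in any comparison. The background was 0.22% of 21853 loci in gf14h-1 against wild type, 0.696% in hdac19-2b against wild type and 0.0183% between the mutants. At an unadjusted p under 0.05 there were 8, 14 and 14 member genes, where the background was 7.89%, 8.09% and 9.76%. DESeq2 was not run on the sums.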

How the data were processed

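Estimated counts for 28607 features were deposited by the authors, together with a normalized signal table with annotation, a median ratio normalization per the file headers, which lacks 153 of those features. Per the submitters' processing notes the tools included HISAT2, Partek, DESeq2 and FastQC 0.11.9. The sources used here do not give their roles, the counting program or strand use, so reads of overlapping or antisense features cannot be told apart. A fractional count is an estimate and not a tally: 0.5% to 3.5% of the members' values in a library were whole to within 0.001, against 69.1% to 83.2% over all features. Estimated counts were rounded for the tests, where the planned design allowed for whole counts. Levels by library are the rounded estimated counts divided by 1 size factor per library, while the means that ranked the members come from the normalized table. Multiplied by the size factors, that table returned whole numbers, to within 0.1, for 99.9% to 100.0% of values. The size factors were derived from the rounded estimated counts, so these numbers are no separate tally of reads. They were run as an alternative. Coordinates are those of the annotated table, whose chromosome accessions match assembly Brachypodium_distachyon_v3.0.

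Tests used edgeR 4.0.16 in R 4.3.3 (TMM scaling, default expression filter, quasi-likelihood model on all 9 libraries, genotype its single term), with Benjamini-Hochberg adjustment; limma 3.58.1 (pseudocount 0.5) and DESeq2 1.42.0 were alternatives. The SE is approximate, from the fold change and the F statistic. The scripts were tested on simulated data. The precision of a value follows from its count: 3 counts are worth 1.13 to 14.3 normalized counts, depending on the library, and cover counting error only. Nothing says more of the replicates than that they are biological, so p-values set a difference against the spread between these samples.

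The members and lists were chosen with earlier results of these data known. The text names the members called, the 10 most abundant, those around the limit of 200, the 8 highest and 8 lowest shares, the 5 smallest p of each test with under 5 calls, the 4 highest and 4 lowest r, and any with a description. Counts of pairs by library and the steadiness of ratios were added after seeing the values. Alternatives were another test, scaling, filter, set of libraries, number of members, minimum count and a replicate block.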

Additional observations from a re-analysis of the deposited data

How the results depend on the processing

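The number of the 200 transcripts called by edgeR was small, and 1 call more or less moves it. In gf14h-1 against wild type it was 1, and became 4 with DESeq2, 0 with the 6 libraries alone and 3 among the 400 most abundant transcripts. Leaving out 1 library at a time gave 0 to 1. In hdac19-2b against wild type it was 1, and became 3 with DESeq2, 2 with the 6 libraries alone and 2 without both gf14h-1 libraries that stand apart, while leaving out 1 library gave 0 to 2. Between the mutants it was 0, and leaving out 1 library gave 0 to 1. Without both gf14h-1 libraries the single call in gf14h-1 was XR_001407642.2 of LOC100821186 in place of XR_002964787.1, with 1 gf14h-1 library that is assumed to vary like the others. The number of ratios called stayed at 0 under each alternative run. Among the named transcripts and ratios, 439 of the alternative values kept direction and side of the threshold. Only XR_002964787.1 was called to begin with, so most of these were values not called that stayed so, whatever their size. The 12 lost calls were all of XR_002964787.1, under 9 of 16 alternatives in gf14h-1 and 3 of 16 in hdac19-2b. A call was gained by 8 values, and none changed sign after a call. The cause was not tested.

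The replicate numbers do not pair the libraries: same-numbered libraries had correlations of −0.136 to 0.0204 in their deviations from the group means, and 0 libraries correlated best with their own number. With the replicate block 0 transcripts were called in each mutant against wild type, and the adjusted p of XR_002964787.1 was 0.107 and 0.0572.

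Depth limits gf14h-1 replicate 3 most. There 3 counts are worth 14.3 normalized counts, against 1.13 to 3.41 in the other libraries.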

Other observations

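LOC100828033, whose transcript XR_002966481.1 stands at the lower end of the 200, had the smallest p among the 152 tested gene rows of member genes in both mutants. In wild type the gene row held 580, 467 and 481 normalized counts, in gf14h-1 116, 194 and 191, and in hdac19-2b 265, 163 and 195. All mutant libraries were below the wild type libraries. The log2 differences were −1.64 (SE 0.29) and −1.29 (SE 0.28), with edgeR adjusted p of 0.0745 and 0.104; DESeq2 called it in both. Its transcript held 65.7, 106 and 12.8, then 2.93, 101 and 421, then 40.0, 83.1 and 30.3, with overlap of all groups. The value of 421 is that of the shallow gf14h-1 replicate 3, and only through it is this transcript among the 200. This gene row was singled out after its values were seen.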
